A study of Mus musculus with 6 samples.

Results

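The Six-family, Eya and Dach genes were followed in 6 mouse leg tumors driven by the fusion oncogene of synovial sarcoma. The 9 genes described, Six2, Six4, Six5, Eya1, Eya2, Eya3, Eya4, Dach1 and Dach2, were taken by name from a table of 17312 genes, and all 9 were found in it. The 3 SS18-SSX2 tumors arose in mice with a Cre-lox inducible allele of SS18-SSX2, and the 3 SS18-SSX1 tumors in mice with the matching allele of SS18-SSX1. In every mouse TATCre, a recombinase protein that enters cells, had been injected into pre-tibial soft tissue of the leg, and about 1 year afterwards the tumor was harvested. Recombination therefore took place in whichever cells the protein reached, and neither the strain, the sex nor the age at injection is in the labels. Whether tumors of a genotype came from separate mice is not in the labels, so a p-value covers the spread of these samples and no more.

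Six-family proteins are homeodomain transcription factors that bind DNA, and Eya proteins are their coactivators, which carry a phosphatase domain and do not bind DNA themselves. Dach proteins are nuclear cofactors related to the Ski corepressors and can switch such complexes from activation to repression. With Pax factors the 3 families form a network that was first worked out in the fly eye and that in vertebrates builds muscle precursors, kidney, ear and cranial placodes.

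Expression was deposited as FPKM, fragments per kilobase of gene model, scaled to library size, which allows levels of different genes to be set side by side. The steps between low values put 7285853 to 17546227 reads behind a tumor, so that 1 read in a gene of 1 kb was worth 0.0570 to 0.137 FPKM, and SS18-SSX2 tumor 2 was the shallowest. Of 8 markers of synovial sarcoma 7 were in the table, and all 7 were above 1 FPKM in all 6 tumors. The RNA of other cells differed between tumors of a genotype. The mean log2(FPKM + 1) of 22 muscle fibre genes was 6.29 in SS18-SSX2 tumor 2 and 7.44 in SS18-SSX1 tumor 2, against 2.18 to 3.26 in the other 4 tumors, and that of 8 mast cell genes was 7.14 in SS18-SSX1 tumor 3 and 1.27 to 3.21 elsewhere. Ddx3y, a gene of the Y chromosome, stood at 0 to 0.0148 FPKM in SS18-SSX2 tumors and 28.2 to 35.2 FPKM in SS18-SSX1 tumors, so for every gene below the fusion and the sex chromosomes of the mice cannot be told apart. In bulk RNA, fewer cells of a type and less RNA per cell cannot be told apart either.

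None of the 7 members that could be tested passed the test between genotypes. Genes entered the test with at least 1 FPKM in at least 3 tumors, and limma on log2(FPKM + 1) called 9 of 13873 genes at a Benjamini-Hochberg adjusted p under 0.05 (0.0649%). The count of members called was 0 of 7 in limma, with 1 at an unadjusted p under 0.05, Six4, where 4.97% of tested genes had such a p. Six2 and Dach2 missed the filter and are described without that test. The tested members had a median log2 difference (SS18-SSX2 minus SS18-SSX1) of 0.21, beside 0.01 over all tested genes, with 5 means higher and 2 lower in SS18-SSX2 tumors. Values of the genotypes did not overlap for 4 of the 9 members, lower in SS18-SSX2 tumors for Six2 and Six4 and higher for Eya1 and Dach2. Over the whole table the genotypes did not overlap for 9.21% of genes, lower in SS18-SSX2 tumors for 3.93% and higher for 5.28%.

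**Figure D1:**
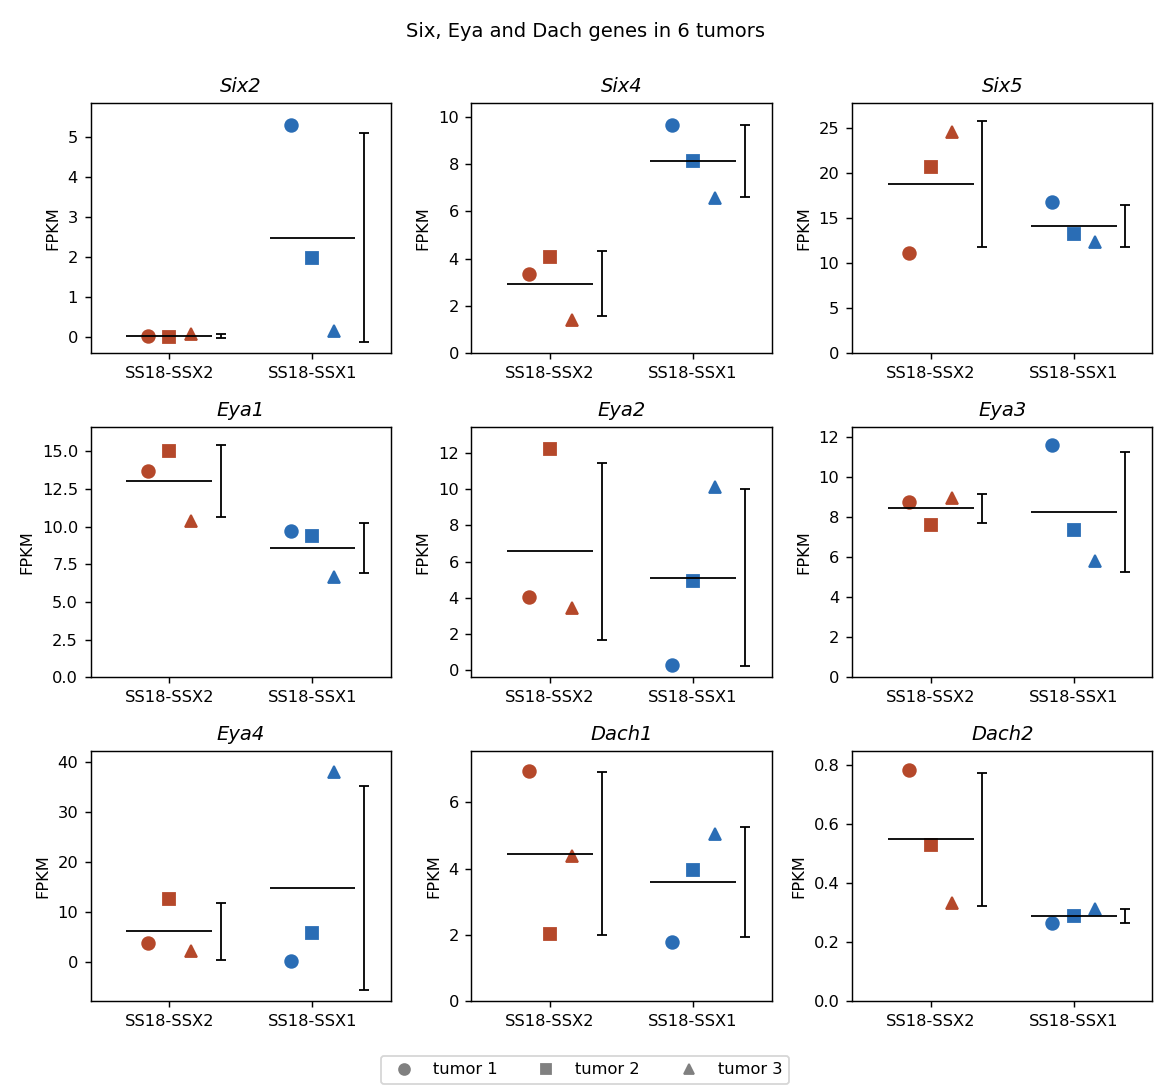
FPKM of each member in each tumor, with SS18-SSX2 tumors in red, SS18-SSX1 tumors in blue, a line at the mean and a bar of 1 SD on each side (n = 3); symbols give the tumor number and each vertical axis has its own scale. Six2 lay between 0 and 0.0982 FPKM in SS18-SSX2 tumors and between 0.161 and 5.29 FPKM in SS18-SSX1 tumors, while Eya4 was spread within each genotype.

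Six2 had the largest fold between the genotype means of the 9 members. Six2 keeps kidney precursors from differentiating and is also expressed in limb tendon and facial mesenchyme of the embryo. Six2 (ENSMUSG00000024134) lies on the minus strand of chromosome 17 at 85684277 to 85688274 on GRCm38. It had 0.0323, 0 and 0.0982 FPKM in SS18-SSX2 tumors 1, 2 and 3, against 5.29, 1.98 and 0.161 FPKM in SS18-SSX1 tumors 1, 2 and 3. These values stand for 1, 0 and 3 reads in the SS18-SSX2 tumors and for 150, 58 and 6 reads in the SS18-SSX1 tumors. The gene was thus nearly silent in every SS18-SSX2 tumor and in SS18-SSX1 tumor 3, and clearly read in the other two SS18-SSX1 tumors.

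The separation of Six2 rested on those tumors. Over all tumors there were 4 Six2 reads of 36173348 with SS18-SSX2 and 214 of 44630506 with SS18-SSX1, 43.4-fold more per read with SS18-SSX1 (95% exact binomial interval 16.7 to 161, for counting error only). Without SS18-SSX1 tumor 1 the ratio was 18.5 (6.88 to 69.9). SS18-SSX1 tumor 3 alone gave 3.09 against the SS18-SSX2 tumors (0.733 to 14.9), an interval that includes equal levels, so no difference was shown. In SS18-SSX2 tumor 2, with 0 reads, a count of 0 allows up to 0.193 FPKM (3 reads). The difference in mean log2(FPKM + 1) was -1.42, and an exact two-sided permutation test over the tumors gave p = 0.10 (n = 3 each), the smallest that 3 against 3 can give.

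Six4 is a factor of muscle precursors and of dorsal root ganglia that overlaps in function with its neighbors in the family. Six4 (ENSMUSG00000034460) lies on the minus strand of chromosome 12 at 73099609 to 73113456. Six4 had 3.33, 4.08 and 1.41 FPKM in SS18-SSX2 tumors 1, 2 and 3, against 9.66, 8.13 and 6.58 FPKM in SS18-SSX1 tumors 1, 2 and 3. All 3 SS18-SSX2 tumors lay below all 3 SS18-SSX1 tumors, with 142 reads or more behind each value. Six4 averaged 2.94 ± 1.38 FPKM with SS18-SSX2 and 8.12 ± 1.54 FPKM with SS18-SSX1 (SD, n = 3 each).

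The Six4 difference was -1.27 on the log2(FPKM + 1) scale, SE 0.35, with a 95% interval of -2.09 to -0.45. Its unadjusted p in limma was 0.00751 and its adjusted p 0.636, so it did not pass over all genes. The size of the Six4 difference was above that of 97.1% of tested genes. Without tumor 2 of both genotypes, those rich in muscle RNA, Six4 stood at 3.33 and 1.41 FPKM with SS18-SSX2 and at 9.66 and 6.58 FPKM with SS18-SSX1, a log2 difference of -1.48 (limma adjusted p = 0.419). Across 19 other settings of the analysis the Six4 difference ranged from -1.63 to -0.95 and its limma adjusted p from 0.193 to 1.00.

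The promoter windows of Six2 and Six4 are shown because these 2 members had the lower values in SS18-SSX2 tumors and differ in CG content. Both are 300-base windows at an annotated start from RefSeq on GRCm38.p6, printed 5′ to 3′ on the strand of the gene, with each CG dinucleotide in capitals. The Six2 window is chr17:85688205-85688504, and of 2 Six4 windows the one shown is chr12:73113196-73113495.
Six2: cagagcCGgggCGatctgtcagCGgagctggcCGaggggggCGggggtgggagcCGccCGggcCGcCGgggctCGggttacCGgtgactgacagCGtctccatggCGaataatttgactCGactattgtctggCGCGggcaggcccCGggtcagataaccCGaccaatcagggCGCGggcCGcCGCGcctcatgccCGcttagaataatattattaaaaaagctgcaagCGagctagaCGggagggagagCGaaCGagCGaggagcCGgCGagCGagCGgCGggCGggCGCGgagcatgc
Six4: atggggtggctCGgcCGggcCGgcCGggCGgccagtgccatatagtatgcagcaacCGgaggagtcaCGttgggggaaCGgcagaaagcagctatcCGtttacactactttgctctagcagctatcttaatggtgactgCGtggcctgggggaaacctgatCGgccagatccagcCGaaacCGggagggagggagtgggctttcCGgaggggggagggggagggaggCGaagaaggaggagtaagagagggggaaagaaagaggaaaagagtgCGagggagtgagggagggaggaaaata
The Six2 window holds 37 CG dinucleotides, more than 94.4% of the 32851 mouse promoter windows, and the Six4 window shown holds 16, more than 67.0%. The median was 7 over all windows and 21 over the 12864 windows of tested genes.

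A window was found for 7 of the 9 members, 10 windows in all, and not for Eya1 and Eya2. CG counts ran from 13 in Dach1 through 25 in Eya3 to 37 in Six2. The windows were also searched on both strands for TCAGGTT, the core of the MEF3 element that Six-family proteins bind in muscle genes. It was present in 1 of the 10 member windows, the Six4 window printed above, and in 4.07% of all windows. The other Six4 window, chr12:73113376-73113675, holds 15 CG dinucleotides and no match. The match lies on the opposite strand, inside the stretch chr12:73113326-73113352. That stretch reads as follows on the gene strand, with the motif in capitals.
Six4 MEF3 match: gcctgggggaAACCTGAtcggccagat

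Six5 was the most abundant Six-family member in every tumor. It lies next to Dmpk, the myotonic dystrophy kinase gene, and in mice its loss leads to cataracts. Six5 (ENSMUSG00000040841, chromosome 7, 19094594 to 19098549, plus strand) had 11.1, 20.7 and 24.6 FPKM in SS18-SSX2 tumors 1, 2 and 3, against 16.8, 13.2 and 12.4 FPKM in SS18-SSX1 tumors 1, 2 and 3. The highest and the lowest value both came from SS18-SSX2 tumors, and the SS18-SSX1 tumors lay between them. The log2 difference was 0.33 with a 95% interval of -0.43 to 1.09 (limma adjusted p = 0.997). Dmpk ends 773 bases before Six5 on the same strand, and it stood at 3.04, 17.6 and 6.02 FPKM in SS18-SSX2 tumors and 14.6, 16.0 and 5.86 FPKM in SS18-SSX1 tumors, an order of tumors unlike that of Six5.

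The 3 Six-family members together came to 21.8 ± 6.38 FPKM in SS18-SSX2 tumors and 24.7 ± 6.39 FPKM in SS18-SSX1 tumors (SD, n = 3 each; exact two-sided permutation p = 0.70). Six5 made up 76.8%, 83.5% and 94.2% of that sum in SS18-SSX2 tumors 1, 2 and 3, and 52.8%, 56.6% and 64.9% in SS18-SSX1 tumors 1, 2 and 3. Six4 contributed 5.38% to 23.0% in SS18-SSX2 tumors and 30.5% to 34.9% in SS18-SSX1 tumors. The sums of the genotypes overlapped, while the shares did not.

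**Figure D2:**
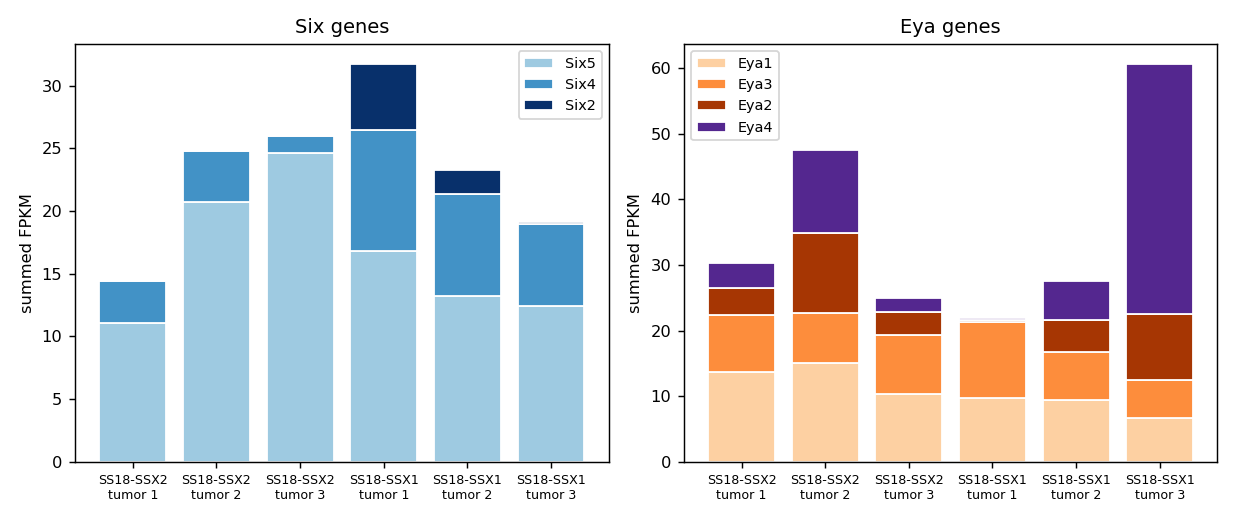
Summed FPKM of the Six-family members (left) and of the Eya members (right) in each tumor, stacked by gene, with the SS18-SSX2 tumors left of the SS18-SSX1 tumors. Six5 fills most of each Six-family bar, and Eya4 fills 62.8% of the tallest Eya bar, that of SS18-SSX1 tumor 3.

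Eya1 was the most evenly expressed of the Eya genes next to Eya3. Eya1 is needed for the ear, the kidney and migrating muscle precursors, and its human counterpart is mutated in branchio-oto-renal syndrome. Eya1 (ENSMUSG00000025932, chromosome 1, 14168954 to 14310235, minus strand) had 13.7, 15.0 and 10.4 FPKM in SS18-SSX2 tumors 1, 2 and 3, against 9.69, 9.38 and 6.67 FPKM in SS18-SSX1 tumors 1, 2 and 3. The genotypes did not overlap, but SS18-SSX2 tumor 3 at 10.4 FPKM (exact Poisson 95% interval for counting 9.61 to 11.2) and SS18-SSX1 tumor 1 at 9.69 FPKM (8.91 to 10.5) were within counting error of each other.

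Eya1 averaged 13.0 ± 2.40 FPKM with SS18-SSX2 and 8.58 ± 1.66 FPKM with SS18-SSX1 (SD, n = 3 each). The log2 difference was 0.55, SE 0.27, with a 95% interval of -0.07 to 1.18 (limma unadjusted p = 0.0748, adjusted p = 0.997). After rescaling to TPM the genotypes overlapped, with 52.8, 34.0 and 32.5 TPM in SS18-SSX2 tumors and 35.1, 23.2 and 17.4 TPM in SS18-SSX1 tumors. Six2, Six4 and Dach2 stayed apart on that scale. After upper quartile scaling Eya1 stayed apart as well, as did Six2, Six4 and Dach2.

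Eya3 is expressed widely in the embryo and the adult. Eya3 (ENSMUSG00000028886, chromosome 4, 132638987 to 132724765, plus strand) had 8.75, 7.63 and 8.97 FPKM in SS18-SSX2 tumors 1, 2 and 3, against 11.6, 7.37 and 5.81 FPKM in SS18-SSX1 tumors 1, 2 and 3. The SS18-SSX2 values lay inside the range of the SS18-SSX1 values. The log2 difference of 0.08 had a 95% interval of -0.62 to 0.77 (limma adjusted p = 0.997), so differences inside that interval were not excluded. Eya3 varied less over the 6 tumors than the other tested members, with an SD of 0.30 on the log2 scale.

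Eya4 had the widest range of any member read in all tumors. In humans Eya4 variants cause hearing loss and heart muscle disease. Eya4 (ENSMUSG00000010461, chromosome 10, 23102963 to 23350786, minus strand) had 3.76, 12.7 and 2.14 FPKM in SS18-SSX2 tumors 1, 2 and 3, against 0.269, 5.93 and 38.1 FPKM in SS18-SSX1 tumors 1, 2 and 3. The highest and lowest values, 142-fold apart, were both from SS18-SSX1 tumors and stood for 2803 and 15 reads. The log2 difference between genotypes was -0.25 with a 95% interval of -2.90 to 2.40 (limma adjusted p = 0.997), and without SS18-SSX1 tumor 3 it was 0.99. The SD of Eya4 over the 6 tumors, 1.72 on the log2 scale, was above that of 98.6% of tested genes.

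Eya2, which acts with Six-family proteins in muscle precursors, followed a similar order. Eya2 (ENSMUSG00000017897, chromosome 2, 165595032 to 165771727, plus strand) had 4.06, 12.2 and 3.46 FPKM in SS18-SSX2 tumors 1, 2 and 3, against 0.304, 4.93 and 10.1 FPKM in SS18-SSX1 tumors 1, 2 and 3. SS18-SSX1 tumor 1 was lowest for both genes, at 12 reads for Eya2, and SS18-SSX2 tumor 2 and SS18-SSX1 tumor 3 held the highest places. The pseudogene Gm11460 overlaps Eya2 on the opposite strand and stood at 0.380 to 2.32 FPKM in SS18-SSX2 tumors and 0.316 to 1.46 FPKM in SS18-SSX1 tumors, in another order. Eya2 differed by 0.60 on the log2 scale with a 95% interval of -1.22 to 2.42 (limma adjusted p = 0.997). Of the 13680 other tested genes with a symbol, 34 had a pattern nearer to that of Eya4 than Eya2 did. The measure was the root mean square difference of centered log2 values over the 6 tumors (0.737, with a median of 1.60 over those genes). Ranked by nearness to Eya2 instead, Eya4 was in place 604, at the same 0.737 with a median of 1.14.

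The list mean of macrophage markers followed the order of Eya2 over the tumors, and that of mast cell markers did not. The mean log2(FPKM + 1) of 8 macrophage genes was 3.54, 5.12 and 3.50 in SS18-SSX2 tumors 1, 2 and 3 and 2.41, 4.53 and 4.56 in SS18-SSX1 tumors 1, 2 and 3, the same order of tumors as Eya2. Summed, the 8 genes, none at 0 in any tumor, had 134, 566 and 145 FPKM in SS18-SSX2 tumors 1, 2 and 3. In SS18-SSX1 tumors 1, 2 and 3 they had 44.1, 316 and 355 FPKM. By sum SS18-SSX2 tumor 3 stood above SS18-SSX2 tumor 1, the reverse of Eya2. The full order was thus shared by the list mean only, where these tumors were close (3.50 and 3.54). The 8 mast cell genes, also never at 0, summed to 30.9, 63.8 and 13.8 FPKM in SS18-SSX2 tumors 1, 2 and 3 and to 99.4, 64.9 and 2519 FPKM in SS18-SSX1 tumors 1, 2 and 3. The top mast cell value was in the tumor with the most Eya4, but the next was in SS18-SSX1 tumor 1, where Eya2 and Eya4 were lowest. The part of these cells in the levels of Eya2 and Eya4 was not tested.

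The genes nearest in pattern to Eya4 were Gstm2, a glutathione transferase, Tyrobp, a signaling adaptor of myeloid cells, and Ccl12, a chemokine, at root mean square differences of 0.450, 0.465 and 0.539. Those nearest to Eya2 were Cthrc1, a secreted protein of matrix-producing cells, Sgk1, a kinase, and Emx2, a homeobox gene (0.231, 0.242 and 0.267, with a median of 1.14). Tcf21, a mesenchymal transcription factor gene, is the nearest protein-coding neighbor of Eya4 on the lower-coordinate side, 282789 bases away. Tcf21 had 2.36, 20.0 and 4.10 FPKM in SS18-SSX2 tumors 1, 2 and 3 and 0.614, 2.73 and 26.8 FPKM in SS18-SSX1 tumors 1, 2 and 3, so that the highest pair of tumors and the lowest tumor were those of Eya4.

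**Figure D3:**
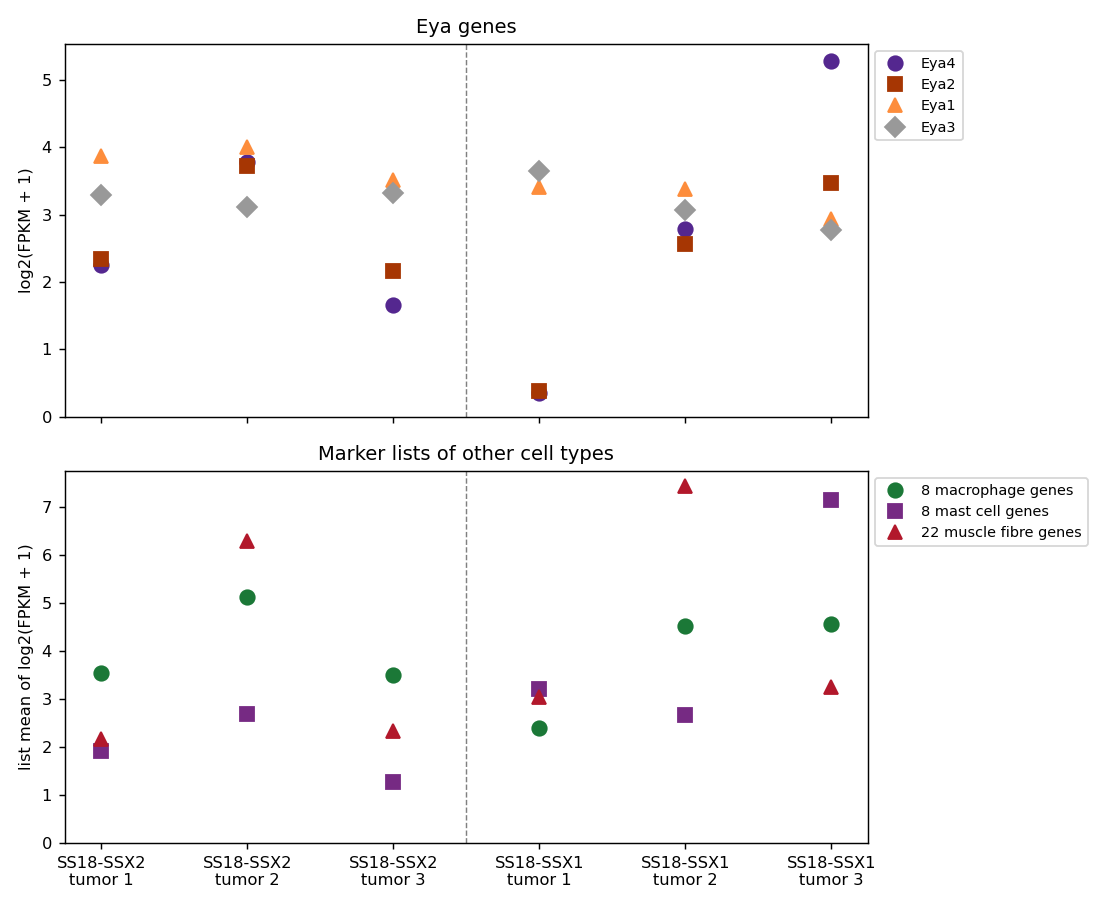
log2(FPKM + 1) of the Eya genes (top) and mean log2(FPKM + 1) of the macrophage, mast cell and muscle fibre lists (bottom) in each tumor, with the SS18-SSX2 tumors left of the dashed line and the SS18-SSX1 tumors right of it. Eya2 and Eya4 are lowest in SS18-SSX1 tumor 1, where the macrophage mean is also lowest at 2.41, while Eya1 and Eya3 vary little.

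The 4 Eya genes summed to 30.3, 47.6 and 25.0 FPKM in SS18-SSX2 tumors 1, 2 and 3, against 21.8, 27.6 and 60.7 FPKM in SS18-SSX1 tumors 1, 2 and 3. Their means were 34.3 ± 11.8 FPKM with SS18-SSX2 and 36.7 ± 21.0 FPKM with SS18-SSX1 (SD, n = 3 each; exact two-sided permutation p = 0.90). The makeup of the sum was more uneven than its size. Eya4 made up 12.4%, 26.7% and 8.59% of it in SS18-SSX2 tumors 1, 2 and 3 and 1.23%, 21.5% and 62.8% in SS18-SSX1 tumors 1, 2 and 3. Eya1 and Eya3 together were nearly all of the Eya RNA in SS18-SSX1 tumor 1, at 44.4% and 53.0%.

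Dach1, which is expressed in the limb bud, the eye and the endothelium of arteries, was the main Dach gene in every tumor. Dach1 (ENSMUSG00000055639, chromosome 14, 97786853 to 98169765, minus strand) had 6.94, 2.03 and 4.38 FPKM in SS18-SSX2 tumors 1, 2 and 3, against 1.78, 3.95 and 5.06 FPKM in SS18-SSX1 tumors 1, 2 and 3. The genotypes overlapped almost fully. The log2 difference was 0.21 with a 95% interval of -0.84 to 1.26 (limma adjusted p = 0.997).

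The gene nearest to Dach1 in pattern was Prtg, a cell adhesion receptor of the embryo, at a root mean square difference of 0.167 against a median of 0.67. The 8 endothelial genes had list means of 3.57, 1.98 and 3.44 in SS18-SSX2 tumors 1, 2 and 3 and 3.51, 1.65 and 2.72 in SS18-SSX1 tumors 1, 2 and 3. SS18-SSX1 tumor 1 was near the top for the endothelial list and the lowest for Dach1, so the orders of the tumors differed.

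Dach2, the member on the X chromosome (ENSMUSG00000025592, 113297510 to 113836386, plus strand), was low in all tumors. It is a paralog of Dach1 that is expressed in embryonic limb and in muscle, where it responds to nerve supply. It had 0.781, 0.529 and 0.332 FPKM in SS18-SSX2 tumors 1, 2 and 3, against 0.266, 0.287 and 0.312 FPKM in SS18-SSX1 tumors 1, 2 and 3, from 112, 38 and 47 reads and 35, 39 and 54 reads. The genotypes did not overlap, yet SS18-SSX2 tumor 3 (exact Poisson 95% interval for counting 0.244 to 0.441 FPKM) and all SS18-SSX1 tumors were within counting error of each other. Over tumors an exact two-sided permutation test gave p = 0.10 (n = 3 each), the smallest possible here. Xist, the X-inactivating RNA, stood at 56.3 to 175 FPKM in SS18-SSX2 tumors and 3.58 to 7.03 FPKM in SS18-SSX1 tumors, so X chromosome number and genotype cannot be told apart for Dach2.

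**Figure D4:**
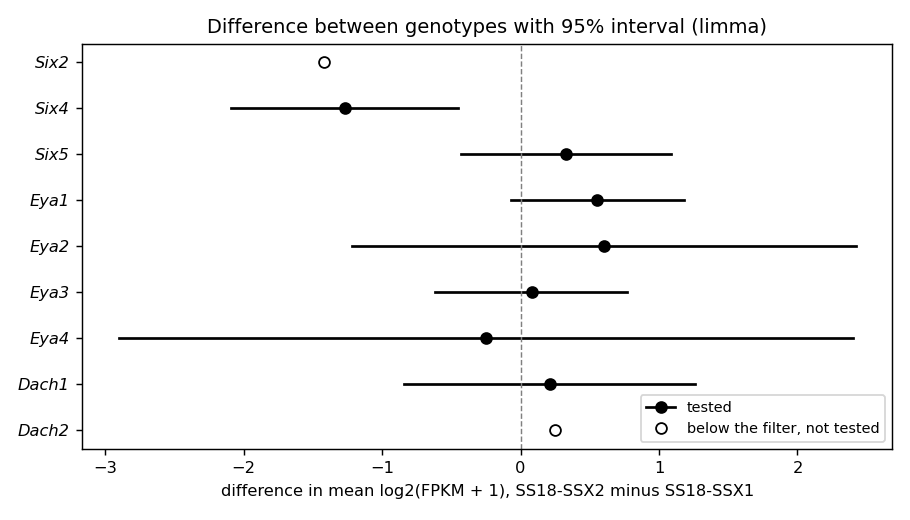
Difference in mean log2(FPKM + 1) between SS18-SSX2 and SS18-SSX1 tumors for each member, with the 95% interval from limma (3 tumors each); open points are members below the filter, which have no interval. The interval of Six4, -2.09 to -0.45, lies below 0 without adjustment over genes, and those of the other 6 tested members include 0.

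Mean FPKM of the 7 tested members over the 6 tumors ran from 4.02 for Dach1 through 5.53 for Six4, 5.85 for Eya2, 8.35 for Eya3, 10.5 for Eya4 and 10.8 for Eya1 to 16.5 for Six5. Neighbors in this order overlapped in their values. In level Six5 stood above 74.8% of the genes in the table and Dach1 above 37.5%, while the untested Six2 and Dach2 averaged 1.26 and 0.418 FPKM. The pattern of Six4 was nearest to those of Zfp970, a zinc finger gene, the HoxA antisense transcript Hotairm1 and Tmcc3, a membrane protein gene (root mean square differences of 0.231, 0.265 and 0.283 against a median of 0.82). Six5 was nearest to Brsk1 (0.111), Eya1 to Pls3, an actin bundling protein gene (0.075), and Eya3 to the kinase gene Snrk (0.035).

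Of 48 other genes of the network, in 6 lists, 43 were in the table and 34 were tested, and limma called 0 of them (6 at an unadjusted p under 0.05). Their means were higher in SS18-SSX2 tumors for 18 and lower for 16, with a median log2 difference of 0.02. The genotypes did not overlap for 5 of the 34 (14.7%), beside 8.72% of all tested genes. Among 12 tested network partners, the Pax, Sall, Hox and other factors that act beside Six-family and Eya proteins, 6 had a higher mean and 6 a lower one in SS18-SSX2 tumors (median 0.11). Further Six-family genes gave 1 tested gene, with a lower mean and overlapping genotypes. The 3 Ski family genes, the nearest relatives of Dach, had 2 higher means and 1 lower (median 0.07), and 6 tested genes reported as Six-family or Eya targets had 4 higher and 2 lower (median 0.03). Of 9 corepressor partners 6 had a higher and 3 a lower mean (median 0.04).

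The partners whose genotypes did not overlap went in different directions. Pax6, a master gene of the eye, had 2.52, 2.09 and 1.97 FPKM in SS18-SSX2 tumors 1, 2 and 3 and 0.0412, 0.108 and 0.233 FPKM in SS18-SSX1 tumors 1, 2 and 3 (95% interval of the log2 difference 0.85 to 2.16, limma adjusted p = 0.353). Pax7, the Pax factor of muscle stem cells and an upstream partner of the Six-family genes, had 8.66, 20.2 and 11.4 FPKM with SS18-SSX2 and 2.24, 4.61 and 7.52 FPKM with SS18-SSX1 (log2 difference 1.35, limma adjusted p = 0.803). Hoxc11, a posterior Hox gene whose paralogs act with Eya1 and Six2 in the kidney, was on the other side, at 8.34, 1.90 and 8.55 FPKM with SS18-SSX2 and 46.8, 31.7 and 17.6 FPKM with SS18-SSX1 (log2 difference -2.27, limma adjusted p = 0.528). The corepressor Tle1 had 34.1 ± 3.81 FPKM with SS18-SSX2 and 24.4 ± 1.20 FPKM with SS18-SSX1 (SD, n = 3 each; limma adjusted p = 0.997).

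The myogenic genes, which Six-family proteins activate in muscle precursors, had 3 tested members, Lbx1, Met and Msc. All had lower means in SS18-SSX2 tumors (median log2 difference -0.66), but Met and Msc overlapped between genotypes. The highest Met value, 49.2 FPKM, came from SS18-SSX1 tumor 3, and the highest Msc value, 5.88 FPKM, from SS18-SSX1 tumor 2. Myod1, Myog and Myf6 missed the filter, and their log2 differences were -0.21, 0.28 and -0.27. Lbx1, needed for muscle precursors to migrate into the limb, had 1.89, 2.16 and 4.07 FPKM in SS18-SSX2 tumors 1, 2 and 3, against 19.6, 16.2 and 6.02 FPKM in SS18-SSX1 tumors 1, 2 and 3. Lbx1 thus had no overlap between genotypes (log2 difference -1.92, limma adjusted p = 0.528). Its lowest SS18-SSX1 value was in tumor 3, as for Hoxc11 and, among the members, Six2, Six4, Six5, Eya1 and Eya3. Myf6, a factor of mature muscle fibres, was read mainly in the muscle-rich tumors, with 9.02 FPKM (SS18-SSX2 tumor 2) and 13.6 FPKM (SS18-SSX1 tumor 2), and 0.183 to 0.662 FPKM in the other 4. Six4 and Lbx1 did not share that order, as SS18-SSX1 tumor 1 was the highest for both.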

How the data were processed

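RNA of 6 tumors was sequenced after ribosomal depletion (Ribo-Zero), per the labels' protocols. Per the submitters' processing notes, the tools include Novoalign 2.08.03 and the build was mm10. The counter, gene models and strand handling were not given in the sources used here. The authors deposited FPKM values, 1 column per tumor. Symbols and positions came from GENCODE M21 on GRCm38 (17029 of 17312 genes matched). With strand handling unknown, reads of a gene and of one overlapping it on the other strand cannot be told apart.

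Library totals were set from the steps of low values in 1475 genes without introns, where 77.5% to 83.0% of low values were whole within 0.02 reads. Member reads used the annotated exon length, or for Six2, Six4, Eya1 and Eya4 the nearest length giving whole reads, without common factors. FPKM uses the authors' gene model, so levels of these 4 genes would shift with M21 lengths, while ratios between tumors would not.

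Tests used limma 3.58.1 in R 4.3.3 on log2(FPKM + 1), two-sided, eBayes with trend, Benjamini-Hochberg adjusted over 13873 genes, a scale that understates changes of low genes. The procedure was tested on simulated data. Python 3.11.15, scipy 1.17.1 and matplotlib 3.10.9 made the remaining values. The text names all members, network genes that did not overlap or had high means, marker lists and the genes nearest in pattern. Members and lists were chosen with earlier results of these data known. The alternatives are given with the limits. Tumor numbers are shared between genotypes, but only 2 of the 3 same-numbered pairs deviated together, so the numbers were not used as pairs.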

Additional observations from a re-analysis of the deposited data

How the results depend on the processing

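With 3 tumors each, limma called 0 members and 0 other network genes under all 19 alternatives. Six4, Eya1 and Six5 kept their direction in all of them, as did Six2 and Dach2 wherever they were computed. Eya4 turned to 0.13 with a pseudocount of 0.1 and to 0.06 after rescaling to TPM. Leaving out 1 tumor at a time gave log2 differences from -1.48 to 0.99 for Eya4, -0.28 to 1.27 for Eya2, -0.12 to 0.32 for Eya3, -0.11 to 0.58 for Dach1, -1.49 to -0.95 for Six4 and -2.05 to -0.83 for Six2. Eya2 was reversed without SS18-SSX1 tumor 1 and Eya3 without SS18-SSX1 tumor 3. Eya4 was reversed without SS18-SSX2 tumor 3 or SS18-SSX1 tumor 3, and Dach1 without tumor 1 of either genotype. With a pseudocount of 0.1 Six2 had -3.37. Over all genes 9 calls became 5 with a pseudocount of 0.1, 16 with weights per tumor, 20 without tumor 2 of both genotypes and 3 to 11 without 1 tumor, the lowest without SS18-SSX2 tumor 3, and the cause was not tested. The replicate block, with tumor number as the block, gave 4 calls, and 0 members. Same-numbered tumors deviated with correlations of 0.382, 0.307 and -0.281 across genes for tumors 1, 2 and 3. The values of tumors 1 and 2 were the highest of the 9 between genotypes, but the tumor 3 value was negative, so not every pair exceeded 0.1 and the numbers were not taken to pair the tumors.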
